A study of Rattus norvegicus with 6 samples.

Results

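The miR-99, miR-100 and miR-125 family was described in fibroblasts of rat sciatic nerve and in the extracellular vesicles (EV) they release. The members were the 5p arms rno-miR-99a-5p, rno-miR-99b-5p, rno-miR-100-5p, rno-miR-125a-5p and rno-miR-125b-5p (the prefix for rat is left out in what follows), 5 of the 1071 rows of the deposited count table and of its 552 known rat miRNAs. They were chosen by name. All 5 passed the filter on low counts and were among the 328 miRNAs tested.

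Small RNA was sequenced from 3 EV samples, whose RNA the labels call exosomal, and from 3 Intracellular samples. Both groups came from wild-type, untreated, nerve-derived fibroblasts of Rattus norvegicus and carry the same batch number in the labels. The sources used here do not give strain, age, culture conditions or how vesicles were isolated. Nor do the labels tie replicates to different cultures or animals, and every p-value therefore speaks of the spread among these libraries alone, part of which may be technical.

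Each member belongs to an old animal miRNA family. A miRNA pairs with messenger RNAs mainly through its seed, bases 2 to 8, and lowers their translation and stability, so miRNAs with one seed share many predicted targets. miR-125 is the vertebrate counterpart of the worm developmental miRNA lin-4 and is known in mouse cells to repress Lin28, a protein that blocks let-7 maturation. The miR-99 and miR-100 group is known from human cells to repress the growth kinase MTOR. In vertebrate genomes these miRNAs lie beside let-7 genes in clusters. In the RefSeq gene table for rat (GRCr8, used here for names and neighbours only) the order was Mir99b, Mirlet7e and Mir125a in the first cluster. It was Mir100, Mirlet7a-2 and Mir125b1 in the second, within the span of the host gene Mir100hgl, and Mir99a, Mirlet7c1 and Mir125b2 in the third. A further miRNA gene lies within each cluster (Mir3596c, Mir3596a and Mir3588), and whether counting used strand is not stated.

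The sequences show the pair of seeds that divide the family. Mature sequences of 4 of the 5 members were matched in RefSeq (GRCr8), miR-99a-5p being the other. Capitals mark the seed.
miR-99b-5p: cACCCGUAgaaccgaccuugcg
miR-100-5p: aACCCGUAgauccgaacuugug
miR-125a-5p: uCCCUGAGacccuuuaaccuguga
miR-125b-5p: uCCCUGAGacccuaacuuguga
miR-351-5p: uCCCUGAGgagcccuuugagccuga
miR-351-5p is no member and is shown because it was the only other known miRNA in the table with the seed of a member, that of the miR-125 group. By the deposited sequences, miR-99a-5p had the seed of miR-99b-5p and miR-100-5p. It differed from miR-100-5p at 1 of 22 bases and from miR-99b-5p at 4. miR-125a-5p, of 24 bases, and miR-125b-5p, of 22, share their first 13 bases. How the authors divided reads between such near-identical miRNAs is not stated, so single levels of miR-99a-5p and miR-100-5p are uncertain.

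The total per library was 81211 to 105578 counts in EV and 1839047 to 8859302 in Intracellular samples. Levels are given as CPM, the count divided by the library total and scaled to 1000000, with no length term. In EV, 1 count stood for 9.47 to 12.3 CPM. The lowest EV count of a member was 353, for which counting error alone is 5.32%. Intracellular replicate 1 stood apart in its scaling factor by TMM (trimmed mean of M values), 0.557, against 0.963 and 0.935 in Intracellular replicates 2 and 3. Fold changes of the members and of the 3p arms of miR-125b are therefore given with and without it. The 5 fibroblast and mesenchymal markers (miR-143-3p, miR-145-5p, miR-199a-3p, miR-214-3p and miR-21-5p) all had counts and together took 39.3% to 40.5% of EV and 43.6% to 46.9% of Intracellular counts. Markers of other cells had counts too. The liver miRNA miR-122-5p stood at 11158 to 13723 CPM in EV and 117.7 to 344.7 CPM in Intracellular libraries. Both erythroid markers summed to 151.5 to 221.6 CPM in EV and 2.03 to 5.98 CPM in Intracellular libraries. The 3 muscle markers summed to 49.3 to 151.5 CPM in EV and 9.06 to 12.6 CPM in Intracellular libraries. The 4 leukocyte markers summed to 18.9 to 32.5 CPM in EV and 11.4 to 37.1 CPM in Intracellular libraries. The endothelial miR-126a-3p stood at 227.4 to 426.2 CPM in EV and 139.2 to 382.9 CPM in Intracellular libraries. The neuronal miR-9a-5p was at 1084 to 1321 CPM in EV and 678.6 to 2052 CPM in Intracellular libraries. The glial miR-338-3p and miR-219a-5p together reached at most 47.4 CPM in EV, with 1 or more EV libraries at 0, and 20.1 CPM in Intracellular libraries. The part of such RNA in the results was not tested. In bulk samples like these, fewer cells or vesicles of a kind and less RNA in each cannot be told apart.

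All 5 members were abundant in vesicles and cells, and their summed share of a library was 6.22% ± 0.318 for EV, against 7.08% ± 0.732 for Intracellular libraries (SD, 3 of each). miR-99a-5p had the highest level of the family in every library. In EV libraries the order of mean levels was miR-99a-5p, miR-125b-5p, miR-99b-5p, miR-100-5p and miR-125a-5p, and no neighbours in this order overlapped. In Intracellular libraries the order of means was the same, but miR-125b-5p overlapped miR-99b-5p, and miR-99b-5p overlapped miR-100-5p. Adapter ligation favours some sequences over others, so the order holds for counts and not for molecules.

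In the miR-99 and miR-100 group, miR-99a-5p was at 25378, 22552 and 25702 CPM in EV replicates 1, 2 and 3, against 31700, 27329 and 29085 CPM in Intracellular replicates 1, 2 and 3. Every EV library lay below every Intracellular library. This was the only member whose groups did not overlap in CPM, and 3.66% of all tested miRNAs were lower in EV in that way, of 45.4% without overlap in either direction.

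miR-99b-5p was at 10073, 10921 and 10820 CPM in EV, against 7895, 10938 and 12159 CPM in Intracellular libraries, in replicate order. miR-100-5p was at 9334, 9917 and 10040 CPM in EV, against 7900, 10050 and 9883 CPM in Intracellular libraries. For both, the groups overlapped, Intracellular replicate 1 was the lowest of the 6 libraries, and EV libraries spread less (coefficient of variation 4.37% and 3.86% in EV, against 21.3% and 12.9% for Intracellular libraries).

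In the miR-125 group, miR-125b-5p was at 11981, 12417 and 14297 CPM in EV, against 11606, 19019 and 19652 CPM in Intracellular libraries. The 3 EV values lay between Intracellular replicate 1 and the other Intracellular libraries. miR-125a-5p, the least abundant member, was at 4347, 3855 and 4896 CPM in EV, against 3563, 5517 and 6096 CPM in Intracellular libraries. Here too the groups overlapped through Intracellular replicate 1 alone.

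**Figure D1:**
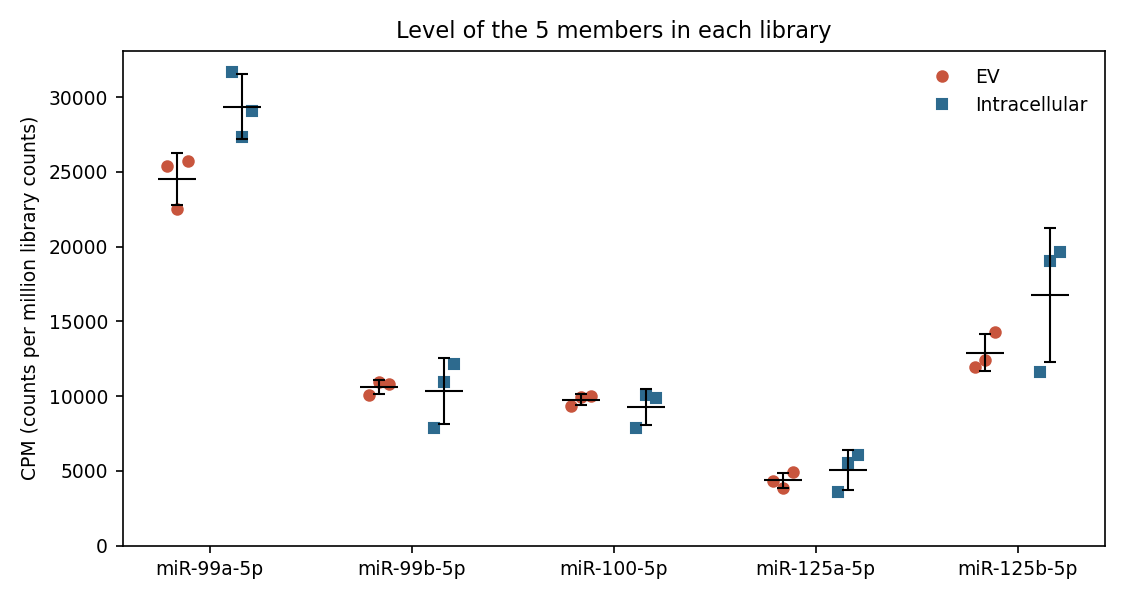
Level of the 5 members in CPM (y axis, linear from 0) in each of the 3 EV and 3 Intracellular libraries. Points are libraries, horizontal marks means and bars the SD. Only for miR-99a-5p do all EV points lie below all Intracellular points, and for the other 4 members the lowest Intracellular point is replicate 1.

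Relative to the TMM reference, all 5 members were called lower in EV than in Intracellular libraries, with log2 fold changes of -0.59 to -0.99 with a median of -0.83. Across all tested miRNAs the median was -0.06. Of those, 17.1% were called lower (56 of 328) by the quasi-likelihood test of edgeR at a Benjamini-Hochberg adjusted p under 0.05. Among the 62 tested miRNAs with a mean of at least 1000 CPM, a range that includes all 5 members, 33 (53.2%) were called lower and their median was -0.53. A TMM call of lower in EV was thus frequent at this abundance, and the members' calls are to be read against that share.

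The decrease depended on the scaling. With total counts in place of TMM, 0 of the 5 members were called, 3 miRNAs of all tested (0.915%) were called lower and the median of all tested was 0.55, a shift of 0.61. None of the 5 then had an unadjusted edgeR p under 0.05, the lowest being 0.0590 for miR-125b-5p. DESeq2 with its own size factors called all 5 lower, among 51 of 327 miRNAs that it called lower. The members' median with total counts was -0.21 (range -0.37 to 0.08), again below that of all tested. Among the 62 tested miRNAs with a mean of at least 1000 CPM, the total-count median was 0.09. miR-99b-5p, at 0.04, and miR-100-5p, at 0.08, lay close to that value. Without Intracellular replicate 1, total counts gave 2 of 5 members lower, both of the miR-125 group, against 6.4% of all tested called lower and 36.0% called higher. With TMM and without that library all 5 were lower, against 17.7% of all tested called lower and 27.7% called higher.

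The log2 fold change of miR-125b-5p was -0.99 (SE 0.23, edgeR adjusted p = 0.00251) with TMM and -0.37 (adjusted p = 0.141) with total counts. Without Intracellular replicate 1 it was -0.93 with TMM and -0.58 (adjusted p = 1.67e-05) with total counts. miR-125a-5p had -0.83 (SE 0.20, adjusted p = 0.00298) with TMM and -0.21 (adjusted p = 0.606) with total counts. Without Intracellular replicate 1 miR-125a-5p had -0.76 with TMM and -0.41 (adjusted p = 0.00829) with total counts. Both kept their call with TMM when any 1 library was left out (adjusted p of at most 0.0346 and 0.0331).

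For miR-99a-5p the log2 fold change was -0.99 (SE 0.29, edgeR adjusted p = 0.0112) with TMM and -0.26 (adjusted p = 0.199) with total counts. Its TMM value was -0.55 without Intracellular replicate 1, and its call was lost without EV replicate 1 (adjusted p = 0.0670) or EV replicate 2 (adjusted p = 0.0674). miR-99b-5p had -0.60 (SE 0.22, adjusted p = 0.0355) with TMM and 0.04 (adjusted p = 0.909) with total counts. miR-100-5p had -0.59 (SE 0.22, adjusted p = 0.0413) with TMM and 0.08 (adjusted p = 0.810) with total counts. The TMM call of miR-99b-5p was lost without EV replicate 1 (0.158), EV replicate 2 (0.104) or Intracellular replicate 3 (0.123), and that of miR-100-5p without the same libraries (0.173, 0.117 and 0.0823) or EV replicate 3 (0.0548). Without Intracellular replicate 1, miR-99b-5p had -0.48 (edgeR adjusted p = 0.00146) and miR-100-5p -0.38 (adjusted p = 0.00941) with TMM, both called. Fitted among known miRNAs alone, neither was called (adjusted p = 0.0828 and 0.0945).

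**Figure D2:**
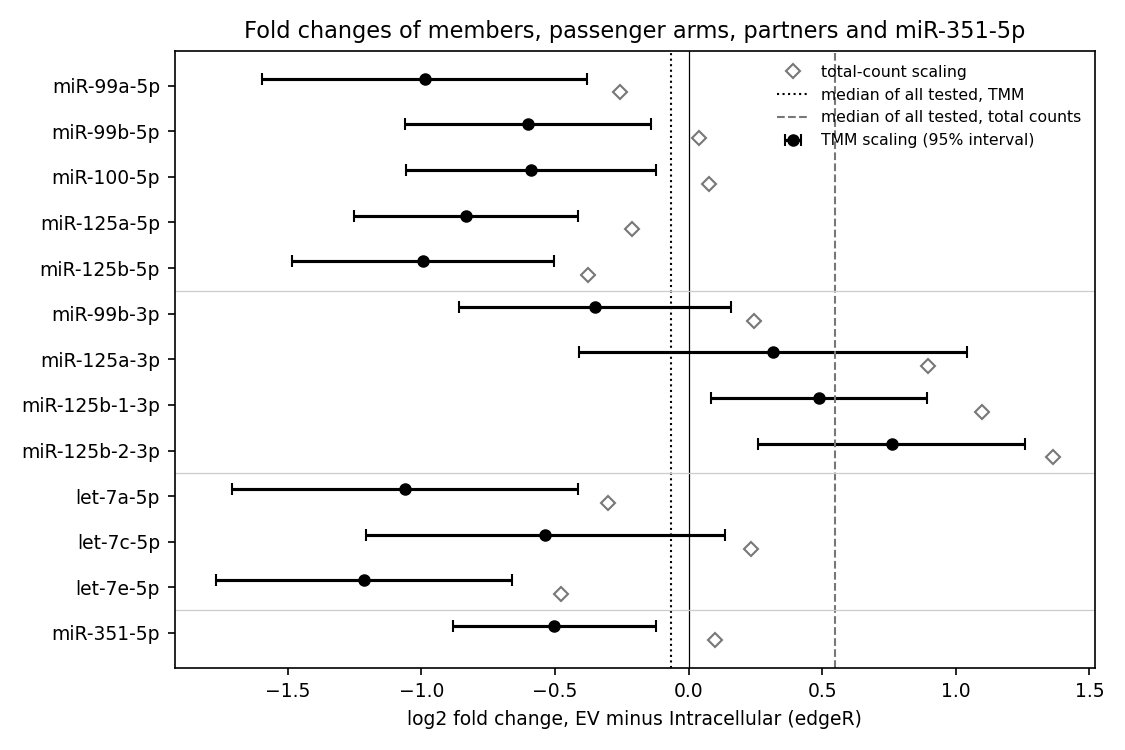
Log2 fold change, EV minus Intracellular, by edgeR for the 5 members, the passenger arms tested, the let-7 partners and miR-351-5p. Filled points with 95% intervals are from TMM scaling, open diamonds from total counts, and vertical lines mark the medians of all tested miRNAs, -0.06 and 0.55. The members lie to the left of the median under either scaling, and both 3p arms of miR-125b lie to its right.

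Both 3p arms of miR-125b were higher in EV, while their 5p arm was lower with TMM. A precursor hairpin yields a 5p and a 3p strand, and in this family the 5p strand is the guide and the 3p strand the rarer passenger. miR-125b-5p comes from a pair of precursors whose 3p arms can be told apart, miR-125b-1-3p and miR-125b-2-3p. Their sequences are shown because they alone separate the loci, with bases 2 to 8 in capitals.
miR-125b-1-3p: aCGGGUUAggcucuugggagcu
miR-125b-2-3p: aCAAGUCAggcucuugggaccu
These differ at 4 of 22 bases.

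miR-125b-1-3p was at 1379, 1032 and 1213 CPM in EV, against 357.8, 719.0 and 617.5 CPM in Intracellular libraries, from 112, 109 and 112 EV counts. miR-125b-2-3p was at 406.3, 492.5 and 270.8 CPM in EV, against 94.1, 186.5 and 174.3 CPM in Intracellular libraries, from 33, 52 and 25 EV counts. All EV libraries lay above all Intracellular libraries for both arms, as for 41.8% of all tested miRNAs.

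By edgeR, miR-125b-1-3p was higher in EV by 0.49 (SE 0.19, adjusted p = 0.0481) with TMM and by 1.10 (SE 0.34, adjusted p = 0.0101) with total counts. miR-125b-2-3p was higher by 0.76 (SE 0.24, adjusted p = 0.0155) and by 1.36 (SE 0.39, adjusted p = 0.00563). Of all tested, 25.6% were called higher with TMM and 32.6% with total counts. The TMM call of miR-125b-1-3p was lost without EV replicate 1, 2 or 3 (adjusted p = 0.148, 0.0526 and 0.120) and without Intracellular replicate 2 or 3 (0.0717 and 0.0912). That of miR-125b-2-3p was lost without EV replicate 2 (0.129). Neither was called with upper-quartile scaling (log2 fold changes 0.25 and 0.50, adjusted p = 0.346 and 0.0879) or without a filter on low counts (adjusted p = 0.297 and 0.0623). Without Intracellular replicate 1, miR-125b-1-3p was at 0.50 with TMM and 0.85 with total counts, and miR-125b-2-3p at 0.77 and 1.12. All were called higher, as were 27.7% (TMM) and 36.0% (total counts) of all tested.

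The ratio of the arms within a library does not depend on scaling between libraries. For each 100 counts of miR-125b-5p there were 11.5, 8.31 and 8.48 counts of miR-125b-1-3p in EV, against 3.08, 3.78 and 3.14 in Intracellular libraries. For miR-125b-2-3p there were 3.39, 3.97 and 1.89 in EV, against 0.811, 0.981 and 0.887 in Intracellular libraries. The groups did not overlap in either ratio, and Intracellular replicate 1 lay with replicates 2 and 3.

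On the log2 scale the ratio of miR-125b-1-3p to miR-125b-5p was higher in EV by 1.50 (SE 0.35, adjusted p = 0.0181 by limma over 79 precursor arm pairs). That of miR-125b-2-3p was higher by 1.74 (SE 0.40, adjusted p = 0.0181). Both share the same 5p counts and are not independent. Over all 79 pairs the median difference was 0.30, 25.3% were called in either direction, 15.2% were called higher and 46.8% had groups that did not overlap. Leaving out any Intracellular replicate ended both calls (adjusted p of 0.0583 to 0.0868 and 0.0670 to 0.0710), with differences of 1.44 to 1.59 and 1.68 to 1.81. Without any 1 EV library both calls held (adjusted p of at most 0.0456).

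miR-125a-3p, the passenger of miR-125a, stood at 1.42, 2.95 and 2.43 counts per 100 of its 5p arm in EV, against 0.870, 1.14 and 1.07 in Intracellular libraries. Its log2 difference of 1.17 (SE 0.39, limma adjusted p = 0.0651) did not pass the threshold and rests on 5, 12 and 11 EV counts. Without EV replicate 1 it passed (adjusted p = 0.0364). By edgeR with TMM the arm itself was at 0.32 (adjusted p = 0.485). miR-99b-3p stood at 1.96, 2.60 and 2.40 counts per 100 of its 5p arm in EV, against 1.68, 2.25 and 2.05 in Intracellular libraries. Its groups overlapped (difference 0.25, SE 0.35, adjusted p = 0.604), and by edgeR with TMM the arm was at -0.35 (adjusted p = 0.259).

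The passengers of miR-99a and miR-100 had no EV counts. miR-99a-3p had 0 EV and 14 Intracellular counts in all and miR-100-3p 0 and 3. A pooled EV count of 0 allows up to 10.7 CPM, or 0.0440% and 0.110% of the counts of their 5p arms. This floor of 3 counts covers counting error only. The Intracellular shares, 0.00344% and 0.00222%, lie below it, so no difference was detectable at this depth.

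**Figure D3:**
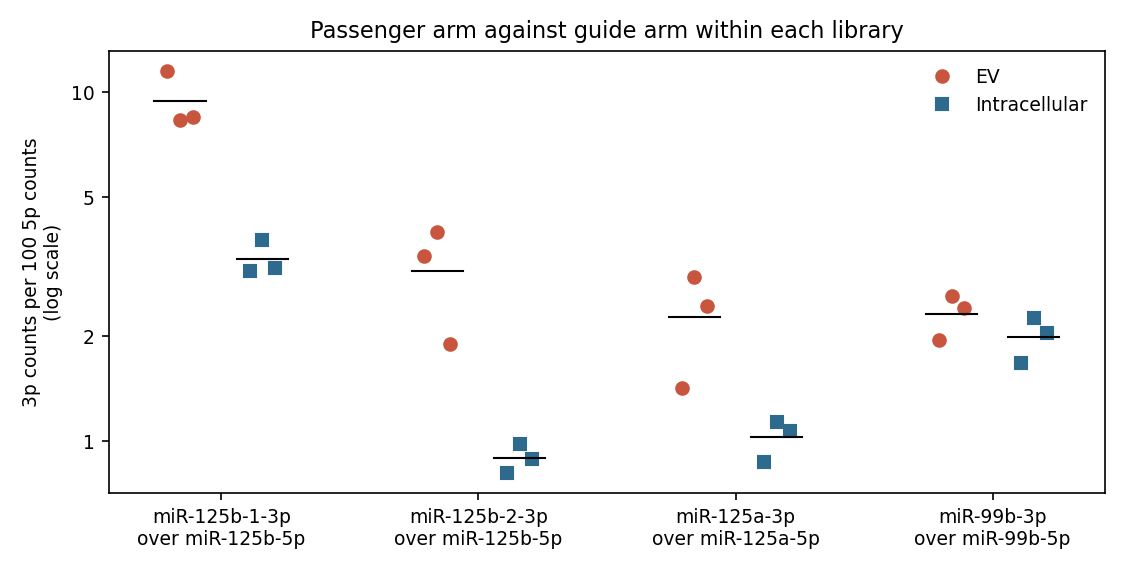
Counts of the 3p arm per 100 counts of the 5p arm (y axis, log scale) for 4 precursors in 3 EV and 3 Intracellular libraries. Points are libraries and lines means. For both miR-125b precursors and miR-125a all EV points lie above all Intracellular points, and for miR-99b they overlap.

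The let-7 miRNAs of the same clusters, which are known to repress growth and developmental genes, were read beside the members. Of the 3 partners, let-7e-5p (-1.21, edgeR adjusted p = 0.00127) and let-7a-5p (-1.06, adjusted p = 0.0107) were lower in EV with TMM, and let-7c-5p was not called (-0.54, adjusted p = 0.193). Without Intracellular replicate 1 the TMM values were -0.75 for let-7e-5p and -0.51 for let-7a-5p, both called (adjusted p = 1.11e-05 and 0.000368). With total counts 0 of 3 were called, and let-7c-5p was then at 0.23. With total counts and without Intracellular replicate 1, let-7e-5p was called lower (-0.39, adjusted p = 0.00620). The call of let-7a-5p was lost without EV replicate 1 (0.0764) or 2 (0.0550). Calls of let-7c-5p went either way: lower with upper-quartile scaling (-0.77, adjusted p = 0.0178) or no filter (-0.67, adjusted p = 0.00921), and higher with total counts without Intracellular replicate 1 (0.42, adjusted p = 0.000440). let-7a-5p and let-7c-5p are also made elsewhere in the genome and differ from each other at 1 of 22 bases, so their ratios to members mix several loci. Of their passenger arms, let-7e-3p had 6 EV counts, let-7c-1-3p 4 and let-7a-2-3p 0, and neither of the first pair was called by edgeR with TMM (adjusted p = 0.772 and 0.536). By limma over the arm pairs, the ratio of let-7e-3p to let-7e-5p was higher in EV by 1.69 (SE 0.50, adjusted p = 0.0445), as for both miR-125b precursors, and the groups did not overlap. It rests on 2, 3 and 1 EV counts, and its call was lost without any 1 library but EV replicate 3 (adjusted p of 0.0569 to 0.135). The ratio of let-7c-1-3p to let-7c-5p was not called (0.34, adjusted p = 0.714).

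Ratios within a library were compared for 12 pairs of members and partners and for the 4 arm pairs above, with 2-sided tests by exact permutation, in which 3 against 3 libraries give no p below 0.1. Of the 16 ratios, 8 reached that value, where the groups do not overlap (Benjamini-Hochberg adjusted p = 0.200 for each). Among all pairs of known miRNAs of at least 1000 CPM on average, 58.7% had ratios that did not overlap. The 3p arms of the 4 arm pairs lie below that level, so this share is a background for the other 12 pairs only. Those of the 12 without overlap were miR-99b-5p to let-7e-5p, miR-125b-5p to miR-100-5p, miR-99a-5p to let-7c-5p, miR-99a-5p to miR-100-5p and miR-125a-5p to miR-125b-5p.

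In the first cluster, miR-99b-5p stood at 1.99, 2.05 and 1.93 counts for each count of let-7e-5p in EV, against 0.954, 1.59 and 1.70 in Intracellular libraries. All EV libraries were higher, by 0.54 on the log2 scale (exact permutation p = 0.1) and by 0.27 without Intracellular replicate 1. The ratio of miR-125a-5p to let-7e-5p overlapped between the groups (difference 0.29, exact permutation p = 0.5, and -0.020 without Intracellular replicate 1), and that of miR-125a-5p to miR-99b-5p likewise (-0.24, p = 0.2).

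In the second cluster, miR-125b-5p stood at 1.28, 1.25 and 1.42 counts for each count of miR-100-5p in EV, against 1.47, 1.89 and 1.99 in Intracellular libraries. All EV libraries were lower, by a log2 difference of -0.42 (exact permutation p = 0.1), and of -0.56 without Intracellular replicate 1. The ratio of miR-100-5p to let-7a-5p overlapped (difference 0.38, and 0.13 without Intracellular replicate 1). That of miR-125b-5p to let-7a-5p overlapped through Intracellular replicate 1 alone (difference -0.05, and -0.43 without it). Counts of miR-125b-5p sum the products of Mir125b1 and of Mir125b2, which lies in the third cluster. Its ratios in both clusters therefore mix loci.

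In the third cluster, miR-99a-5p stood at 0.898, 0.777 and 0.793 counts for each count of let-7c-5p in EV, against 1.00, 1.21 and 1.31 in Intracellular libraries. All EV libraries were lower, by a log2 difference of -0.51 (exact permutation p = 0.1) and of -0.61 without Intracellular replicate 1. Ratios of miR-125b-5p to let-7c-5p and to miR-99a-5p overlapped through Intracellular replicate 1 alone (differences -0.59 and -0.08, and -0.998 and -0.39 without it).

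Between paralogs, the ratio of miR-99b-5p to miR-100-5p differed least, at 1.08, 1.10 and 1.08 in EV, against 0.999, 1.09 and 1.23 in Intracellular libraries. The EV values lay within the Intracellular range (difference -0.02, exact permutation p = 0.8). miR-99a-5p to miR-100-5p was 2.72, 2.27 and 2.56 in EV, against 4.01, 2.72 and 2.94 in Intracellular libraries, so that the nearest libraries of the groups touched at 2.72. miR-125a-5p to miR-125b-5p was 0.363, 0.310 and 0.342 in EV, against 0.307, 0.290 and 0.310 in Intracellular libraries, where the nearest libraries touched at 0.310.

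**Figure D4:**
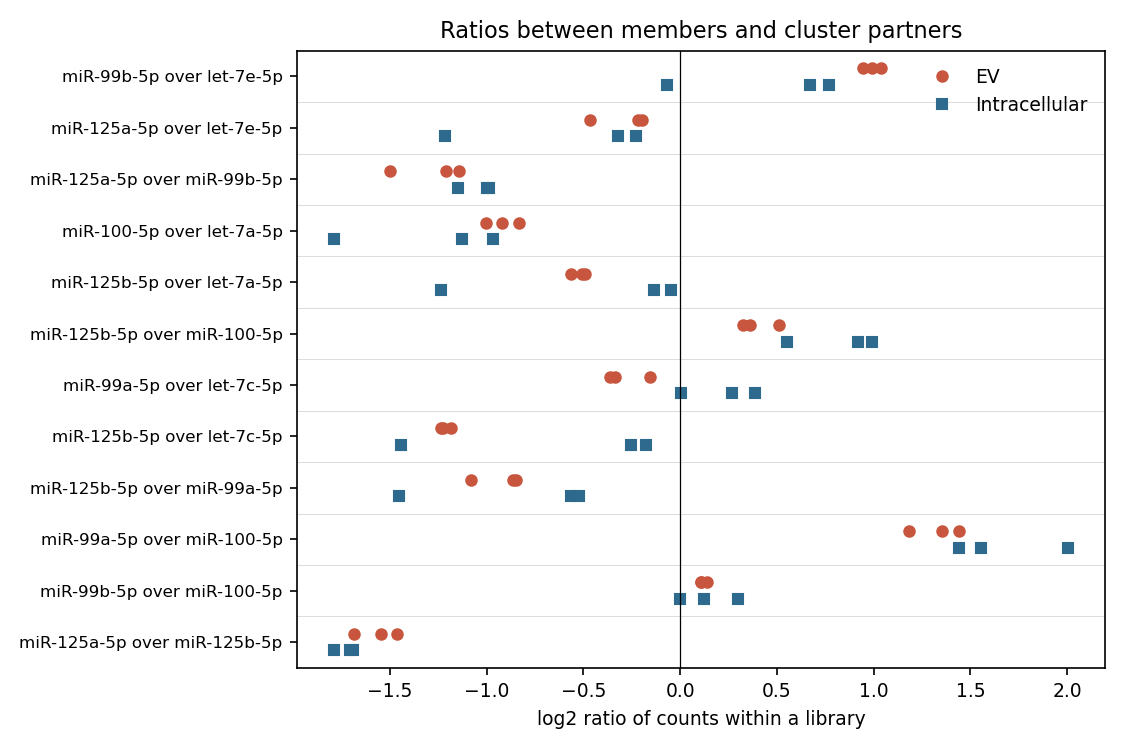
Log2 ratio of counts within a library (x axis) for 12 pairs of members and partners, with 3 EV and 3 Intracellular points each. The Intracellular point farthest left in the rows over let-7e-5p and let-7a-5p is replicate 1. EV points are all higher for miR-99b-5p over let-7e-5p and all lower for miR-125b-5p over miR-100-5p and miR-99a-5p over let-7c-5p.

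miR-351-5p, which shares the miR-125 seed and is encoded elsewhere, was at 1515, 1421 and 1278 CPM in EV, against 790.6, 1600 and 1550 CPM in Intracellular libraries. The groups overlapped through Intracellular replicate 1. Its log2 fold change was -0.50 (SE 0.18, edgeR adjusted p = 0.0333) with TMM and 0.10 (adjusted p = 0.862) with total counts. The TMM call was lost without any 1 library but Intracellular replicate 1 (adjusted p of 0.0676 to 0.149), and among known miRNAs alone (0.109). miR-10a-5p, of the related miR-10 family, was at -0.65 (adjusted p = 0.0182) with TMM and 0.01 with total counts. Its call was lost without EV replicate 1 (0.0949) or 2 (0.0750). miR-10b-5p had 1 EV count and was not tested.

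Likeness of patterns was measured as the Euclidean distance between log2(CPM + 1) values over the 6 libraries, each centred on its own mean, against the other known miRNAs tested. The nearest to miR-99a-5p were miR-21-5p (distance 0.197), miR-98-5p (0.241) and let-7a-5p (0.242), and its nearest fellow member lay farther (miR-100-5p, 0.620). For miR-100-5p they were miR-10a-5p (0.105), miR-370-3p (0.175) and miR-374-5p (0.284). For miR-99b-5p they were miR-409a-5p (0.145), miR-10a-5p (0.193) and miR-136-3p (0.237). miR-99b-5p and miR-100-5p lay 0.216 apart. For miR-125a-5p they were miR-26a-5p (0.227), miR-379-5p (0.294) and miR-27b-3p (0.317), and for miR-125b-5p miR-199a-5p (0.239), miR-329-5p (0.323) and miR-26a-5p (0.342). The distance between miR-125a-5p and miR-125b-5p was 0.264. All share the same 6 libraries, so these distances are descriptions.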

How the data were processed

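Small RNA was measured in 3 EV and 3 Intracellular samples, grouped by their titles. The authors deposited whole counts per mature miRNA and a TPM table. Adapters were trimmed with cutadapt and the genome build was Rnor_6.0, per the submitters' processing notes. The aligner, the miRNA database, the counter, its use of strand and the handling of reads shared by near-identical miRNAs are not stated in the labels or notes. The deposited TPM equalled CPM (counts over the library total, scaled to 1000000) to within 4.8e-05, with no length term, and CPM are used here.

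Counts were fitted over the whole table with edgeR 4.0.16 (R 4.3.3): TMM scaling, filterByExpr (minimum count 10, minimum total 15), robust quasi-likelihood test, 2-sided, Benjamini-Hochberg adjustment over 328 miRNAs, threshold 0.05. Ratios within a library were log2 values with a prior count of 0.5, compared by exact permutation tests (scipy 1.17.1), and arm ratios also by limma 3.58.1 over 79 precursors. Figures were drawn with matplotlib 3.10.9. Scripts were tested on simulated data. Alternatives were other scalings, no filter, DESeq2 1.42.0, limma on log2(TPM + 1) and log2(TPM + 0.1), known miRNAs alone, the replicate number as a block and each library left out.

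With 81211 to 105578 counts in EV, low rows are imprecise. Replicate pairs differed beyond counting noise, with a chi-square per degree of freedom of 3.67 to 9.64 within EV and 32.2 to 230.0 within Intracellular, and each was kept as a sample. All samples carry 1 batch number. Named miRNAs were the members, their 3p arms, the let-7 neighbours with their 3p arms, other miRNAs with a member's seed, miR-10a-5p and miR-10b-5p, and the 3 nearest in pattern to each member. Members, lists and tests were chosen with earlier results of these data known. Total counts without Intracellular replicate 1, and the fit of arm ratios over all precursors, were added after seeing the data. miR-219a-2-3p and miR-124-3p, on the glial and neuronal marker lists, had no row of those names in the deposited count table.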

Additional observations from a re-analysis of the deposited data

How the results depend on the processing

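RLE scaling, upper-quartile scaling, no filter and DESeq2 kept all 5 members lower in EV. Of all tested, these called 55 of 328, 92 of 328, 71 of 1071 and 51 of 327 miRNAs lower, in that order. Total counts gave miR-99a-5p -0.26, miR-99b-5p 0.041, miR-100-5p 0.077, miR-125a-5p -0.21 and miR-125b-5p -0.37, none called. Limma on log2(TPM + 1) gave -0.26, 0.060, 0.081, -0.18 and -0.34 in the same order, and on log2(TPM + 0.1) -0.26, 0.060, 0.081, -0.18 and -0.34, none called. Both leave out TMM scaling. Known miRNAs alone gave miR-99b-5p -0.48 and miR-100-5p -0.47, no longer called, and the cause was not tested. With the replicate number as a block, miR-99b-5p had -0.60 and miR-100-5p -0.58 (edgeR adjusted p = 0.0894 and 0.0961), neither called. Of all tested, 87 miRNAs were then higher and 46 lower. Deviations from the group mean correlated at 0.02 in each pair of libraries with one number. Such correlations cannot tell whether these libraries share a culture, and the labels do not say. Total counts without Intracellular replicate 1 gave miR-99a-5p -0.20, miR-99b-5p -0.12 and miR-100-5p -0.026, not called. With each library left out in turn, TMM values ran from -1.16 to -0.55 for miR-99a-5p, -0.68 to -0.48 for miR-99b-5p, -0.66 to -0.38 for miR-100-5p, -0.98 to -0.75 for miR-125a-5p and -1.13 to -0.89 for miR-125b-5p. Over all 16 alternatives adjusted p spanned 2.96e-06 to 0.199 for miR-99a-5p, 0.00146 to 0.909 for miR-99b-5p, 0.00246 to 0.872 for miR-100-5p, 2.25e-05 to 0.623 for miR-125a-5p and 2.36e-08 to 0.277 for miR-125b-5p.

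Of all tested, 56 were lower and 84 higher in EV. Lower counts were 3 with total counts, 92 with upper-quartile scaling, 4 and 2 with limma, 37 with known miRNAs alone, 21 with total counts without Intracellular replicate 1, and 18 to 58 with each library left out. Without EV replicate 1 they were 18, without EV replicate 2 26 and without Intracellular replicate 3 36. Higher counts were 197 with no filter and 62 to 91 with each library left out.

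Signs turned for miR-99b-3p (total counts 0.25, limma 0.28 and 0.28, total counts without Intracellular replicate 1 0.012), let-7c-5p (0.23, 0.25, 0.25 and 0.42, and TMM without Intracellular replicate 1 0.064), miR-351-5p (total counts 0.10, limma 0.16 and 0.16) and miR-10a-5p (0.010, 0.018 and 0.018). Of the members, miR-99b-5p (total counts 0.041, limma 0.060 and 0.060) and miR-100-5p (0.077, 0.081 and 0.081) turned too. The 3p arms of miR-125b stayed positive under all 16 alternatives. With each library left out, the ratios of miR-125a-5p to let-7e-5p (-0.020 to 0.47), miR-125b-5p to let-7a-5p (-0.43 to 0.16), miR-125b-5p to miR-99a-5p (-0.39 to 0.078) and miR-99b-5p to miR-100-5p (-0.092 to 0.058) also changed sign, as did let-7c-1-3p to let-7c-5p (-0.41 to 0.74, the lowest without Intracellular replicate 1). The other ratios of members kept their sign. Under other prior counts no ratio of members moved by more than the pooled SD, which includes Intracellular replicate 1. With 3 libraries in a group, leaving out 1 cannot move a difference by more than the pooled SD. That comparison therefore says nothing on how stable the ratios are. Depth limits the 3p arms most, since miR-125a-3p had 5 to 12 counts in an EV library.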

Other observations

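Within the miR-99 and miR-100 group, miR-99a-5p made up 54.6% ± 2.40 of the counts of the 3 members in EV, against 60.1% ± 5.79 inside cells (SD over 3 libraries each). miR-125b-5p made up 74.7% ± 1.48 of the miR-125 group in EV and 76.8% ± 0.639 in Intracellular libraries. Of the 3p counts of miR-125b, 75.6% ± 7.17 came from miR-125b-1-3p in EV and 78.9% ± 0.759 in Intracellular libraries. The shares of miR-125b-5p did not overlap between the groups, the nearest libraries being at 76.31% in EV and 76.33% in Intracellular libraries, as in the ratio of miR-125a-5p to miR-125b-5p already given. The shares of miR-99a-5p and of miR-125b-1-3p overlapped.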
